A study of Mus musculus with 36 samples.

Results

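The cell cycle, DNA replication and E2F genes described here are 49 mouse genes chosen by gene symbol from a list of known regulators: the E2F factors with a dimer partner, the pocket proteins, cyclins, cyclin-dependent kinases (CDKs), their inhibitors, the proteins that load and run the replicative helicase, and mitotic kinases and checkpoint proteins. All 49 were found among 55492 gene symbols in gonads and 56893 in primordial germ cells (PGCs), with 24 genes of G1/S control, 10 of replication and 15 of mitosis. Bulk RNA-seq covered 36 mouse libraries in 12 groups of 3, of control fetuses and fetuses exposed to intrauterine hyperglycemia (IUHG). The 30 PGC libraries were from E12.5 fetuses, with the sexes not separated, and from female and male fetuses at E13.5 and E16.5, and the 6 gonad libraries were from E13.5 females. The question was how germ cells and the gonad that houses them differ when the mother is hyperglycemic, and in which sex.

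Fetuses were labelled as wild type. Gonads came from ICR matings, and PGCs came from fetuses that carried an Oct4-EGFP transgene, whose germ line promoter marks PGCs, and were sorted by EGFP. IUHG dams were injected with streptozotocin (STZ), a toxin of pancreatic beta cells, at 120 mg/kg on E3.5, and were kept if blood glucose on E6.5 was above 14 mM. Control dams received no STZ, so the drug and the hyperglycemia cannot be told apart. Each library was made from a pool of fetuses labelled as a biological replicate.

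The G1/S switch works by a repressor and its release. Pocket proteins (RB1, p107, p130) hold E2F factors silent until cyclin D with CDK4 or CDK6 and cyclin E with CDK2 phosphorylate them, and INK4 and CIP/KIP inhibitors block those kinases. Freed E2F factors switch on the genes of DNA replication, and a later wave of genes, with cyclin B, Aurora and Polo kinases, carries the cell through mitosis. Mouse PGCs divide rapidly while they settle in the gonad. Female PGCs then replicate their DNA a last time and, without another mitosis, enter meiotic prophase, and male PGCs arrest in G0/G1.

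Levels are given as TPM, the transcript abundance of StringTie, which is scaled for transcript length and library, in the order of libraries 1, 2 and 3. Differences are on the log2(TPM + 1) scale with the standard error (SE), and a value of 1 is a doubling except in genes of low TPM, whose change this scale understates. Adjusted p-values are from limma over all genes tested. A difference in PGCs was called at an adjusted p under 0.01 with an absolute log2 fold change over 1, and in gonads at an adjusted p under 0.05 with a log2 value of 1 or more in size. Members at an adjusted p under 0.05 of any size are counted apart. For alternative runs, numbers over all genes are given for calls only. Member counts at an adjusted p under 0.05 in those runs are therefore not set against all genes. Aligned bases ranged from 3.252 to 8.323 gigabases in PGCs and from 3.888 to 4.949 in gonads. The reads behind single genes are unknown, so counting error is not given. In bulk RNA, fewer cells in a phase and less RNA per cell cannot be told apart.

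Some libraries stood apart from their group. Control gonad library 1 held Y-linked transcripts, with a sum of 51.3 TPM over 4 genes that were all listed at 0 in the other 5 libraries, and Sertoli cell markers summing to 230 TPM against 33.0 to 34.2 TPM in the other control gonads. The Y-linked sum at E12.5 was 194 to 212 TPM in control and 130 to 154 TPM in IUHG PGCs, and its part in E12.5 results was not tested. Library 3 of the E13.5 female IUHG PGCs had higher levels of many members than libraries 1 and 2, and the counts and role medians of that comparison are also given without it. Sorted PGCs expressed germ cell markers at sums of 1274 TPM or more in every library, and in E12.5 and E13.5 PGCs the Sertoli, pregranulosa and interstitial marker sums were at most 13.6 TPM. The endothelial list summed to 46.7 to 209 TPM in these PGCs through *Pecam1*, a gene that PGCs also express, while *Cdh5*, *Kdr* and *Tie1* were at most 0.650 TPM. Blood markers reached 62.9 TPM in E13.5 male control library 1.

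**Figure D1:**
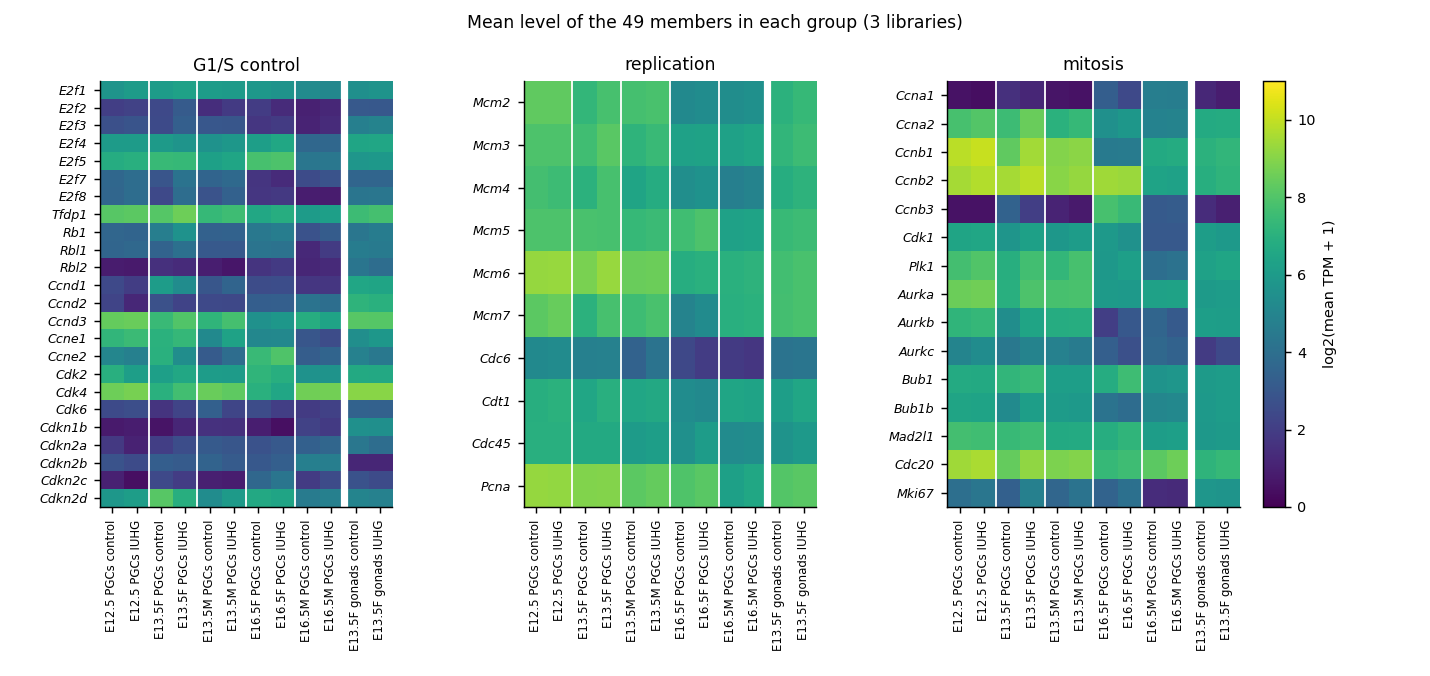
Mean level of the 49 genes in each of the 12 groups, as log2(mean TPM + 1) by colour, in a panel for each role (rows, genes; columns, groups of 3 libraries). The brightest cells include *Ccnb1*, *Ccnb2*, *Cdc20*, *Mcm6* and *Pcna* of E12.5 PGCs and *Ccnb2* of female PGCs at E13.5 and E16.5, and *Cdkn1b*, *Rbl2* and *Ccna1* are dark at E12.5.

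Promoter sequences of RefSeq (GRCm38.p6, 250 bases before to 50 bases after the start of transcription) were in hand for 40 of the 49 genes. Cell cycle promoters carry 3 well known elements: the cell cycle homology region (CHR, TTTGAA), which late cell cycle repressor complexes read, the CCAAT box (CCAAT), bound by NF-Y, and the E2F site (searched as TTTNNCGC). With both strands searched, CHR letters were in 7 of 13 mitotic genes, 5 of 18 G1/S genes and 2 of 9 replication genes, against 20.2% of all 27025 genes with a promoter window. CCAAT was in 11 of 13 mitotic, 7 of 9 replication and 10 of 18 G1/S genes, against 41.1% of all genes. The E2F letters were in 6 of 9 replication and 8 of 18 G1/S genes but in 1 of 13 mitotic genes, against 5.93% of all genes. A match is a run of letters and not a shown binding site.

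Below are 6 windows, printed 5′ to 3′ on the gene's strand with motif matches in capitals. *Ccnb1*, *Aurka* and *Cdc20* are mitotic genes that were higher in E13.5 female IUHG PGCs, *Cdkn2d* was lower there, *Ccne1* was higher in E13.5 male IUHG PGCs, and *Mcm6* is shown as the replication gene with the most E2F matches. Matches of different motifs did not overlap, and 2 of the 3 E2F matches of *Mcm6* overlapped each other.
*Ccnb1* (chr13:100786437-100786736, minus strand, 2 CCAAT boxes): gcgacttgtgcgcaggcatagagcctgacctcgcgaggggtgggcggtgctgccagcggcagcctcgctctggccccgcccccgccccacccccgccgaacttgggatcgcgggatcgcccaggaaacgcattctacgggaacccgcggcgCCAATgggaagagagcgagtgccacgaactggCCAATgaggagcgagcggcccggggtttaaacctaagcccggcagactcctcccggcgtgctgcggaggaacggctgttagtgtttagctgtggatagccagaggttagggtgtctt
*Aurka* (chr2:172370521-172370820, minus strand, 1 CHR and 2 CCAAT boxes): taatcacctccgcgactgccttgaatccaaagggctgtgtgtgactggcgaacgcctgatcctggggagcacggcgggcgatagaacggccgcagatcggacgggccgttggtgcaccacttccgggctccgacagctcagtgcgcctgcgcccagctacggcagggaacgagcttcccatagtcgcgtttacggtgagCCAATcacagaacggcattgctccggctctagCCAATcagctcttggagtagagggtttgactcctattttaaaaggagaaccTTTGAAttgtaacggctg
*Cdc20* (chr4:118437294-118437593, minus strand, 1 CHR and 2 CCAAT boxes): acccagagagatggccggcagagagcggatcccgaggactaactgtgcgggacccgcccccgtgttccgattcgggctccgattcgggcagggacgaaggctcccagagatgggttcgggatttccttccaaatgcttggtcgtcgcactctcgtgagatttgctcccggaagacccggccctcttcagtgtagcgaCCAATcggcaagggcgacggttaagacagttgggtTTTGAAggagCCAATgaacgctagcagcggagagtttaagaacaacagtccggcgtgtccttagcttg
*Cdkn2d* (chr9:21291160-21291459, minus strand, 1 CCAAT box): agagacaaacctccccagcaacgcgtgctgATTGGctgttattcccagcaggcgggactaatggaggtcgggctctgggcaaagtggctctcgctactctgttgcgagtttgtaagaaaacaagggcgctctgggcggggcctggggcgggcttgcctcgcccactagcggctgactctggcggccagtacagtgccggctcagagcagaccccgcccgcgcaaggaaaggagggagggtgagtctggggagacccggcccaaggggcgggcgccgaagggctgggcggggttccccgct
*Ccne1* (chr7:38107441-38107740, minus strand, no match): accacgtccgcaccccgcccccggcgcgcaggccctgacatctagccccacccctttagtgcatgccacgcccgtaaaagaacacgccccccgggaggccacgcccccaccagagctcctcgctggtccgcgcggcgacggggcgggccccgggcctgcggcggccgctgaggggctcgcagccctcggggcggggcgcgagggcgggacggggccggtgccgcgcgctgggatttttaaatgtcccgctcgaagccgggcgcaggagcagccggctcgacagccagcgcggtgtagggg
*Mcm6* (chr1:128359656-128359955, minus strand, 2 CCAAT boxes and 3 E2F matches): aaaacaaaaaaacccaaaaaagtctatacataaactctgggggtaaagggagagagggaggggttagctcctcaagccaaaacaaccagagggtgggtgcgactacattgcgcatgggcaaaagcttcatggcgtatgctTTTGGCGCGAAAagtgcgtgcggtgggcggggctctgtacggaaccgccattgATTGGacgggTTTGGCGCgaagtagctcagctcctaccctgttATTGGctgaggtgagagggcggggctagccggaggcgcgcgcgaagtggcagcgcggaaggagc

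In control PGCs, more of these genes fell than rose at every step from E12.5 to E16.5 in both sexes, except that FPKM gave 6 up and 6 down for the first step in females. E12.5 libraries held both sexes, so the first step also compares each sex with their mixture. From E12.5 to E13.5, 6 of 48 tested genes rose and 9 fell in females, while 1 of 47 rose and 6 fell in males. Over all genes tested, 25.5% were called in females (18.6% up and 6.9% down) and 16.2% in males (8.97% up and 7.27% down). From E13.5 to E16.5, 4 of 48 genes rose and 21 fell in females, and 4 of 49 rose and 25 fell in males, beside 28.2% (18.4% up and 9.79% down) and 51% (38.3% up and 12.7% down) of all genes. The median change of replication genes was -1.50 in females and -1.29 in males over this second step, and that of mitotic genes was -0.93 and -1.51, where the medians of all genes were 0.31 and 0.62. G1/S genes had medians of -0.15 and -0.70. The female value was -0.41 under median-of-ratios scaling, -0.28 with FPKM, -0.24 without E16.5 female library 3 and -0.02 without library 2.

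**Figure D2:**
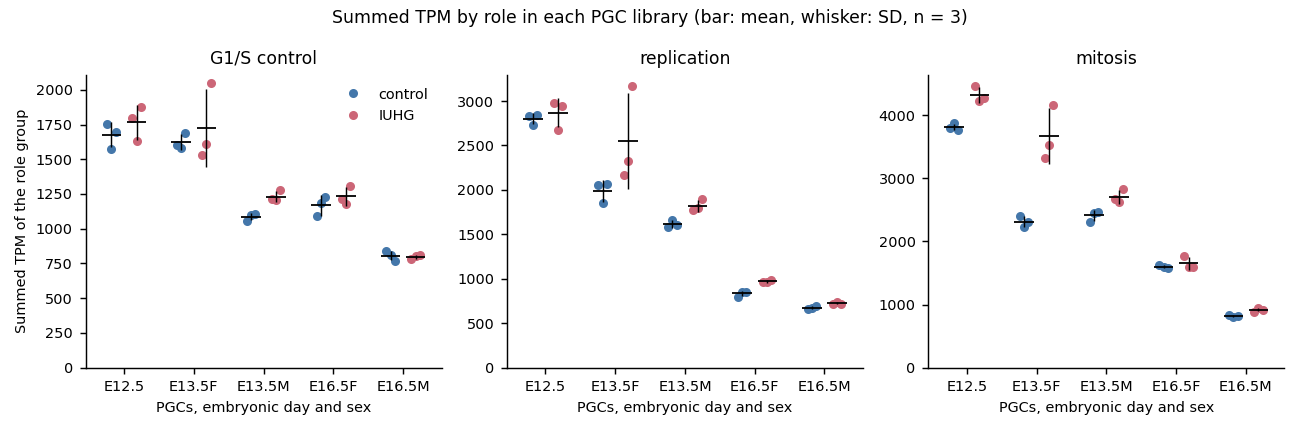
Summed TPM of the genes of each role in every PGC library (x axis, stage and sex; y axis, sum of TPM; blue, control; red, IUHG; bar, mean; whisker, SD, n = 3). The mitotic sum of control libraries was 3775 to 3875 TPM at E12.5, 2230 to 2475 at E13.5, 1578 to 1621 in E16.5 females and 807 to 837 in E16.5 males.

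Among the mitotic genes, B-type cyclins, the partners of CDK1 that drive entry into mitosis, took separate courses. *Ccnb1* (chr13:100915158-100923078, minus strand, Mm39) measured 937, 941 and 937 TPM at E12.5, 315, 307 and 329 in E13.5 females and 462, 497 and 525 in E13.5 males. E16.5 females had 21.6, 18.4 and 24.3 TPM and E16.5 males 110.3, 96.3 and 101 TPM. It fell at each step in females (-1.56 ± 0.06, then -3.84 ± 0.13; adjusted p = 8.5e-08 and 4.9e-08), to a level below that of males (male minus female 2.21 ± 0.13, adjusted p = 3.1e-06). *Ccnb2* measured 732, 769.8 and 706 TPM at E12.5, 764, 741 and 713 in E13.5 females and 493, 535 and 537 in E13.5 males. E16.5 females had 725, 683 and 667 TPM and E16.5 males 84.1, 75.6 and 85.2 TPM. All control female libraries were thus close to the E12.5 level, and only E16.5 males lay far below, with -2.66 ± 0.07 against E13.5 males (adjusted p = 1.3e-08) and -3.07 ± 0.07 against E16.5 females (adjusted p = 1.2e-07). *Ccnb3*, a B-type cyclin known from female meiosis, measured 0.454, 0.390 and 0.567 TPM at E12.5, 11.7, 6.54 and 12.2 in E13.5 females and 0.939, 1.32 and 1.10 in E13.5 males. E16.5 females had 216, 223 and 232 TPM and E16.5 males 6.89, 8.69 and 7.16 TPM. Its rise in females was 2.88 ± 0.26 and then 4.38 ± 0.21 (adjusted p = 1e-05 and 3.9e-07), and E16.5 male libraries were all under 10 TPM.

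The A-type cyclins split by type. *Ccna2*, which acts in S phase and early mitosis, measured 232, 206 and 224 TPM at E12.5, 187, 172 and 202 in E13.5 females and 124, 131 and 135 in E13.5 males. E16.5 females had 39.8, 48.5 and 46.3 TPM and E16.5 males 29.4, 28.3 and 27.6 TPM. It fell in both sexes after E13.5 (-2.04 in females and -2.15 in males). *Ccna1*, the germ line A cyclin of male meiosis, measured 0.747, 0.395 and 0.212 TPM at E12.5, 1.46, 1.00 and 3.18 in E13.5 females and 0.421, 0.692 and 0.455 in E13.5 males. E16.5 females had 5.13, 15.1 and 6.37 TPM and E16.5 males 23.1, 25.8 and 27.0 TPM. It rose in both sexes after E13.5 (1.72 ± 0.41 in females, adjusted p = 0.0063, and 4.11 ± 0.13 in males, adjusted p = 3.4e-08) and was higher in males than in females at E16.5 (adjusted p = 0.004). The female step and the sex difference did not pass without the filter on low values, nor did the step pass without E13.5 female library 1 or 2 or E16.5 female library 2 or 3, nor the sex difference without E16.5 female library 3 or any 1 male library. *Cdk1*, the mitotic kinase itself, measured 85.3, 85.6 and 83.1 TPM at E12.5, 48.9, 53.9 and 52.3 in E13.5 females and 54.7, 56.7 and 55.7 in E13.5 males. E16.5 females had 61.1, 62.4 and 54.5 TPM and E16.5 males 7.81, 6.30 and 7.93 TPM. Its E16.5 male libraries lay apart from all others, at -2.77 ± 0.10 against E13.5 males and -2.86 ± 0.14 against E16.5 females (adjusted p = 6.3e-08 and 1.4e-06).

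The Aurora and Polo kinases fell in both sexes. *Aurkb*, the kinase of the chromosomal passenger complex (chr11:68936473-68942490, plus strand, Mm39), measured 151, 146 and 137 TPM at E12.5, 42.5, 42.9 and 38.5 in E13.5 females and 108, 117 and 105 in E13.5 males. E16.5 females had 5.27, 2.75 and 1.34 TPM and E16.5 males 11.7, 10.8 and 10.7 TPM. It fell by 1.78 at the first step in females and was higher in males at both ages (1.39 ± 0.09 at E13.5 and 1.67 ± 0.34 at E16.5, adjusted p = 2e-06 and 0.0028), and in males it fell after E13.5 (-3.20 ± 0.08, adjusted p = 1.2e-08). *Aurka*, the centrosome and spindle kinase (chr2:172198110-172212455, minus strand, Mm39), measured 353, 384 and 358 TPM at E12.5, 137, 116 and 109 in E13.5 females and 218, 234 and 217 in E13.5 males. E16.5 females had 56.0, 68.6 and 63.2 TPM and E16.5 males 75.1, 79.7 and 77.4 TPM. Its falls were -1.59 ± 0.10 from E12.5 to E13.5 in females and -1.51 ± 0.06 after E13.5 in males (adjusted p = 1e-06 and 8.1e-08). *Aurkc*, the Aurora kinase of meiotic cells, was at 6.90 to 32.0 TPM in control PGC libraries and fell after E13.5 in both sexes (-1.12 and -1.13). *Plk1*, the Polo kinase of mitotic entry and exit, measured 208, 203 and 206 TPM at E12.5, 122, 112 and 121 in E13.5 females and 143, 159 and 167 in E13.5 males. E16.5 females had 60.1, 63.4 and 50.5 TPM and E16.5 males 12.3, 14.0 and 17.4 TPM. The largest step was in males after E13.5 (-3.35 ± 0.12, adjusted p = 7.2e-08). The E16.5 sex difference of *Aurkb* and the female fall of *Aurkc* did not pass without the filter on low values, the first also not without any 1 male library and the second not without E13.5 female library 2 or E16.5 female library 3.

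For *Cdc20* and 3 spindle checkpoint genes, the step after E13.5 in males lay between -0.52 and -0.99, under the fold threshold. *Cdc20*, the activator of the anaphase promoting complex that the checkpoint inhibits (chr4:118290098-118294549, minus strand, Mm39), measured 664, 697 and 679.6 TPM at E12.5, 368, 346 and 306 in E13.5 females and 443, 447 and 455 in E13.5 males. E16.5 females had 186, 148 and 161 TPM and E16.5 males 308, 295 and 304 TPM. It fell by 1.00 ± 0.08 and then by 1.04 in females (adjusted p = 5.5e-06 and 5.8e-05), and E16.5 males were at -0.57 against E13.5 males. *Bub1*, a checkpoint kinase at the kinetochore, measured 103, 109 and 106 TPM at E12.5, 156, 127 and 162 in E13.5 females and 69.2, 68.7 and 74.1 in E13.5 males. E16.5 females had 102, 108 and 119 TPM and E16.5 males 55.0, 46.8 and 45.6 TPM. This kinase was lower in males at E13.5 and E16.5 (-1.05 ± 0.10 and -1.14 ± 0.11, adjusted p = 2.5e-05 and 4.4e-05). *Bub1b*, the checkpoint protein BubR1, measured 85.7, 83.3 and 86.3 TPM at E12.5, 40.0, 28.0 and 44.8 in E13.5 females and 63.4, 64.7 and 64.9 in E13.5 males. E16.5 females had 19.2, 15.0 and 18.1 TPM and E16.5 males 29.1, 35.1 and 31.6 TPM. It fell at the first step in females (-1.18 ± 0.16, adjusted p = 0.00015). *Mad2l1*, the checkpoint protein MAD2, measured 213, 201 and 204 TPM at E12.5, 175, 146 and 187 in E13.5 females and 95.4, 104 and 102 in E13.5 males. E16.5 females had 106, 118 and 116 TPM and E16.5 males 70.8, 72.4 and 65.6 TPM. It fell in males from E12.5 to E13.5 (-1.03 ± 0.06, adjusted p = 4.3e-07). Several of these lay at the fold threshold. The female falls of *Cdc20* did not pass with FPKM or without E12.5 library 2 or E13.5 female library 3 at the first step, nor without E13.5 female library 1 or E16.5 female library 2 at the second, and that of *Bub1b* did not without E13.5 female library 2. With FPKM or median-of-ratios scaling, neither the sex differences of *Bub1* nor the fall of *Mad2l1* passed, and the E13.5 value of *Bub1* also did not without female library 3 nor *Mad2l1* without E13.5 male library 1. *Mki67*, a marker of cycling cells, had 6.59 to 18.0 TPM at E12.5 and E13.5 and 2.11, 1.03 and 1.71 TPM in E16.5 males, against 9.41, 10.4 and 10.9 TPM in E16.5 females.

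All 10 replication genes had lower means at each step in both sexes, and none was called up. The MCM2 to MCM7 proteins form the replicative helicase. *Mcm6* measured 637, 592 and 605 TPM at E12.5, 479.8, 371 and 459 in E13.5 females and 343, 367 and 350.4 in E13.5 males. E16.5 females had 108, 106 and 133 TPM and E16.5 males 113, 133 and 133 TPM. Its TPM was the highest of the helicase genes at E12.5. *Mcm2* measured 333, 293 and 322 TPM at E12.5, 168, 137 and 164 in E13.5 females and 209, 217 and 212 in E13.5 males. E16.5 females had 33.1, 45.0 and 31.7 TPM and E16.5 males 38.4, 43.3 and 39.6 TPM. The fall after E13.5 was -2.07 in females and -2.37 in males (adjusted p = 5.8e-06 and 1.9e-08). *Mcm7* measured 321, 292 and 294 TPM at E12.5, 136, 126 and 141 in E13.5 females and 191, 202 and 184 in E13.5 males. E16.5 females had 32.2, 27.8 and 28.8 TPM and E16.5 males 123, 123 and 115 TPM.

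Between the sexes at E16.5, the helicase genes went in both directions. *Mcm7* was higher in E16.5 males than in E16.5 females (1.99 ± 0.10, adjusted p = 1.4e-06), while *Mcm5* was lower (-1.35 ± 0.10, adjusted p = 1.4e-05) at 71.4, 75.4 and 82.7 TPM in males and 177, 193 and 220.0 TPM in females. Under median-of-ratios scaling, the median sex difference of the replication genes at E16.5 turned from -0.08 to 0.20. *Mcm4* measured 199.5, 206 and 215 TPM at E12.5, 144, 114 and 146 in E13.5 females and 81.9, 88.2 and 83.9 in E13.5 males. E16.5 females had 47.2, 37.5 and 40.6 TPM and E16.5 males 28.6, 23.8 and 26.1 TPM. It fell first in males (-1.28 ± 0.06 from E12.5, adjusted p = 1.5e-07), and *Mcm3* went from 237 to 246 TPM at E12.5 to 70.3 to 86.3 TPM over both sexes at E16.5.

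Helicase loading and the clamp were less uniform. *Cdc6*, the loader, measured 35.4, 36.3 and 35.6 TPM at E12.5, 28.3, 26.4 and 24.6 in E13.5 females and 11.2, 9.42 and 9.71 in E13.5 males. E16.5 females had 6.15, 4.02 and 2.38 TPM and E16.5 males 2.96, 2.19 and 2.70 TPM. It fell in males a step earlier than in females (-1.73 ± 0.10 from E12.5 to E13.5, adjusted p = 4.5e-07), and E13.5 males were below females (-1.31 ± 0.12, adjusted p = 2e-05; -0.99 under median-of-ratios scaling). *Cdt1*, the second loader, was at 27.8, 47.1 and 43.7 TPM in E16.5 females and 92.7, 81.4 and 91.2 TPM in E16.5 males (1.18 ± 0.19, adjusted p = 0.00087), with no overlap, but under the fold threshold without E16.5 female library 1 (0.94). *Pcna*, the sliding clamp of DNA polymerases, measured 584, 603 and 626 TPM at E12.5, 465, 506 and 469 in E13.5 females and 294, 311 and 304 in E13.5 males. E16.5 females had 249.7, 266 and 230.0 TPM and E16.5 males 75.2, 67.3 and 80.8 TPM. It fell after E13.5 in males (-2.01 ± 0.07, adjusted p = 6.8e-08). The pseudogene *Pcna-ps2* was at 12.9 to 169 TPM in PGC libraries, so reads of *Pcna* may be split with that copy. *Cdc45*, the helicase cofactor, was at 117 to 125 TPM at E12.5 and 35.7 to 47.6 TPM at E16.5.

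In G1/S control, 4 of 24 genes were called higher and 7 lower in males than in females at E13.5, and 4 and 9 at E16.5. Over all genes, 9.35% were up and 20.4% down at E13.5, and 28% and 22.9% at E16.5. Both cyclin E genes were lower in males at each age. *Ccne2*, a cyclin E of CDK2 (chr4:11191354-11204779, plus strand, Mm39), measured 33.4, 31.4 and 31.0 TPM at E12.5, 128, 124 and 128 in E13.5 females and 8.84, 7.22 and 7.69 in E13.5 males. E16.5 females had 165, 175 and 189.8 TPM and E16.5 males 7.30, 8.83 and 9.55 TPM. It rose in females (1.96 ± 0.09, adjusted p = 2.2e-07) and fell in males (-1.89 ± 0.11, adjusted p = 4.2e-07), and the sexes did not overlap at either age (male minus female -3.85 ± 0.10 and -4.22 ± 0.13, adjusted p = 1.9e-08 and 2.3e-07). *Ccne1*, the other cyclin E (chr7:37797409-37806959, minus strand, Mm39), measured 152, 150.2 and 151 TPM at E12.5, 139, 119.8 and 124 in E13.5 females and 35.4, 35.3 and 37.0 in E13.5 males. E16.5 females had 23.2, 38.8 and 36.4 TPM and E16.5 males 8.31, 4.98 and 6.49 TPM. It fell in males a step ahead of females (-2.04 ± 0.07, adjusted p = 2e-08). *Ccnd1*, a D cyclin that links growth signals to CDK4 and CDK6, measured 4.11, 4.27 and 4.76 TPM at E12.5, 60.9, 70.5 and 71.0 in E13.5 females and 7.72, 6.55 and 5.63 in E13.5 males. E16.5 females had 7.32, 4.11 and 3.26 TPM and E16.5 males 3.02, 2.17 and 1.79 TPM. E13.5 females stood alone, 3.67 ± 0.14 above E12.5 (adjusted p = 5.6e-08), and lost this level by E16.5 (-3.59 ± 0.25, adjusted p = 3e-06).

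The other D cyclins took other paths. *Ccnd3* measured 373, 298 and 345 TPM at E12.5, 165, 175 and 178 in E13.5 females and 133, 148 and 151 in E13.5 males. E16.5 females had 44.8, 48.2 and 47.8 TPM and E16.5 males 116, 119 and 113 TPM. It fell in males at the first step (-1.23 ± 0.09, adjusted p = 1.1e-06) and in females at the second (-1.86 ± 0.11, adjusted p = 1.1e-06). *Ccnd2* was low in PGCs, at 3.21 to 11.2 TPM, except in E16.5 males at 16.6, 16.9 and 17.6 TPM (1.73 ± 0.10 against E13.5 males, adjusted p = 7.7e-07). Their kinase *Cdk4* measured 401, 370.0 and 384 TPM at E12.5, 127, 125 and 125 in E13.5 females and 353, 359 and 357 in E13.5 males. E16.5 females had 140.0, 109 and 129.8 TPM and E16.5 males 401, 394 and 374 TPM. Female PGCs had fallen at E13.5 (-1.61 ± 0.07, adjusted p = 1.8e-07) and males lay above females at both ages (1.49 and 1.63, adjusted p = 2.4e-07 and 4.3e-06). *Cdk6* (chr5:3393893-3581008, plus strand, Mm39) was far lower and measured 4.93, 4.05 and 4.80 TPM at E12.5, 1.66, 2.16 and 2.59 in E13.5 females and 9.23, 8.36 and 10.5 in E13.5 males. E16.5 females had 4.25, 6.49 and 3.97 TPM and E16.5 males 2.75, 2.62 and 2.86 TPM. It was higher in males at E13.5 (1.73 ± 0.18, adjusted p = 3.5e-05). *Cdk2*, the kinase of cyclins E and A, measured 127, 113 and 125 TPM at E12.5, 75.3, 74.6 and 66.9 in E13.5 females and 62.6, 69.7 and 66.7 in E13.5 males. E16.5 females had 153, 160.0 and 129 TPM and E16.5 males 54.6, 43.1 and 45.1 TPM. It rose after E13.5 in females (1.01 ± 0.12, adjusted p = 9.7e-05) and was lower in E16.5 males (-1.61 ± 0.13, adjusted p = 1.5e-05). The female rise did not pass with FPKM, under median-of-ratios scaling (0.75), or without E13.5 female library 3 or E16.5 female library 1 or 2.

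Of the inhibitors of these kinases, *Cdkn2c* and *Cdkn2d* were lower in males than in females at both ages. *Cdkn2d*, the INK4 inhibitor p19 (chr9:21199706-21202604, minus strand, Mm39), measured 53.2, 59.3 and 54.5 TPM at E12.5, 265, 282 and 293 in E13.5 females and 38.4, 40.6 and 39.1 in E13.5 males. E16.5 females had 101, 89.5 and 103 TPM and E16.5 males 25.3, 21.4 and 22.9 TPM. It rose in females (2.31 ± 0.09, adjusted p = 5.8e-08) and was lower in males at both ages (-2.80 ± 0.08 and -2.03 ± 0.11, adjusted p = 2.3e-08 and 2.4e-06). *Cdkn2c*, the INK4 inhibitor p18, measured 0.896, 1.16 and 0.950 TPM at E12.5, 5.79, 3.81 and 3.51 in E13.5 females and 0.819, 1.08 and 1.01 in E13.5 males. E16.5 females had 11.0, 9.65 and 14.9 TPM and E16.5 males 4.15, 1.96 and 2.28 TPM. It rose at each step in females (1.40 and 1.26, adjusted p = 0.00062 and 0.0026). The second rise did not pass with FPKM, without the filter on low values, or without E13.5 female library 2 or 3 or E16.5 female library 3. The INK4 inhibitors called up in males were *Cdkn2b* (p15) and *Cdkn2a*. *Cdkn2b* measured 6.52, 6.00 and 5.56 TPM at E12.5, 8.12, 9.59 and 8.77 in E13.5 females and 10.4, 12.3 and 8.52 in E13.5 males. E16.5 females had 5.50, 4.30 and 11.8 TPM and E16.5 males 28.2, 29.8 and 20.6 TPM. The male step after E13.5 was a rise (1.25 ± 0.17, adjusted p = 0.00014; 0.89 under median-of-ratios scaling). *Cdkn2a* measured 3.03, 2.19 and 2.37 TPM at E12.5, 2.56, 3.08 and 3.71 in E13.5 females and 8.36, 7.22 and 7.42 in E13.5 males. E16.5 females had 5.66, 5.92 and 5.71 TPM and E16.5 males 8.67, 10.2 and 8.83 TPM. It rose in males from E12.5 to E13.5 (1.30 ± 0.16, adjusted p = 5.8e-05). The files do not part the 2 proteins of the *Cdkn2a* locus. *Cdkn1b*, the CIP/KIP inhibitor p27, was at most 4.18 TPM in control PGCs, with 0.734, 1.54 and 0.349 TPM in E16.5 females and 4.18, 3.54 and 2.78 TPM in E16.5 males (1.30 ± 0.29, adjusted p = 0.0041), and 38.8 to 50.0 TPM in control gonads. Its male excess passed at both ages (1.02 at E13.5) but was lost under 6 of 11 alternatives at E13.5 and 8 of 12 at E16.5, among them no filter on low values, a pseudocount of 0.1, any 1 male library left out, female library 1 left out at either age and female library 3 left out at E16.5.

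At E16.5, *E2f4*, *E2f5*, *Rb1* and *Rbl1* were called lower in males than in females, and *E2f7* was higher at an adjusted p under 0.05 (0.86). *E2f5*, a repressive E2F, measured 111, 105 and 122 TPM at E12.5, 173, 153 and 185 in E13.5 females and 71.3, 74.7 and 77.6 in E13.5 males. E16.5 females had 201, 237 and 230.3 TPM and E16.5 males 19.1, 17.7 and 19.2 TPM. The sexes parted by -1.18 ± 0.09 at E13.5 and -3.50 ± 0.10 at E16.5 (adjusted p = 5.8e-06 and 2e-07). *E2f4*, its close relative, was at 48.6, 71.3 and 94.3 TPM in E16.5 females and 14.2, 11.8 and 9.76 TPM in E16.5 males (-2.45 ± 0.25, adjusted p = 5.9e-05). Of the pocket proteins, *Rb1* measured 13.3, 10.1 and 10.6 TPM at E12.5, 21.9, 25.0 and 29.5 in E13.5 females and 10.0, 9.58 and 9.62 in E13.5 males. E16.5 females had 16.52, 20.8 and 23.5 TPM and E16.5 males 4.96, 6.59 and 5.86 TPM. It rose in E13.5 females (1.10 ± 0.17, adjusted p = 0.00035). *Rbl1* was at 14.0, 18.4 and 21.3 TPM in E16.5 females against 1.70, 1.30 and 1.21 TPM in males (-2.97 ± 0.21, adjusted p = 9.7e-06). *Rbl2* was at most 2.58 TPM in control PGCs. *Tfdp1*, the dimer partner, measured 303, 262 and 292 TPM at E12.5, 267, 258 and 287 in E13.5 females and 158, 159.6 and 168 in E13.5 males. E16.5 females had 92.7, 94.2 and 104 TPM and E16.5 males 69.4, 65.3 and 60.9 TPM. It fell after E13.5 in both sexes (-1.47 and -1.30). *E2f8*, an atypical repressive E2F, measured 11.5, 8.86 and 14.1 TPM at E12.5, 4.40, 4.00 and 4.98 in E13.5 females and 5.76, 6.31 and 6.06 in E13.5 males. E16.5 females had 1.82, 2.18 and 3.05 TPM and E16.5 males 1.42, 0.493 and 0.560 TPM. It fell in females by E13.5 (-1.18 ± 0.21, adjusted p = 0.00084). The E13.5 sex difference of *E2f5* (-0.85) and the female rise of *Rb1* did not pass under median-of-ratios scaling, the latter also not without E13.5 female library 3, and the fall of *E2f8* did not with FPKM (-0.99). The activators *E2f1*, *E2f2* and *E2f3* were called at no step in females, and *E2f3* alone of them in males (-1.92 after E13.5).

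Over the 49 genes, 5 were higher and 10 lower in control males than females at E13.5 (29.8% of all genes called, 9.35% up and 20.4% down), and 9 higher and 17 lower at E16.5 (50.9% of all genes, 28% up and 22.9% down). These counts move with scaling. Under median-of-ratios scaling, 7 were higher and 6 lower at E13.5 and 13 higher and 16 lower at E16.5, and over all genes the share of calls that were up changed from 1469 of 4680 to 2213 of 4340 at E13.5 and from 6180 of 11222 to 7151 of 11303 at E16.5. The steps shift in the same way, with 5 up and 14 down from E12.5 to E13.5 in females, 3 up and 23 down from E13.5 to E16.5 in females and 3 up and 31 down in males. The median of the G1/S genes from E12.5 to E13.5 in females turned from 0.09 to -0.16. Meiotic marker sums moved with the female course, from 174 to 190 TPM at E12.5 to 3597 to 3901 TPM at E13.5 and 6678 to 7157 TPM at E16.5, and in E16.5 males blood markers summed to 198 to 461 TPM; their part in these differences was not tested.

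In E13.5 female IUHG PGCs, 5 mitotic genes were higher and 2 G1/S genes lower than in controls. Of 49 genes tested, none passed both thresholds by limma, as 0.515% of all genes did. An unadjusted p under 0.05 was found for 21 (23.4% of all genes) and an adjusted p under 0.05 for 7 (3.07% of all genes). These were *Ccnb1*, *Aurka*, *Aurkb*, *Ccna2* and *Cdc20*, all mitotic and all higher, where 1.07% of all genes were up, and *Ccne2* and *Cdkn2d*, both of G1/S control and lower, where 2% of all genes were down. The median difference was 0.73 over mitotic, 0.45 over replication and 0.39 over G1/S genes, beside 0.14 over all genes tested. Median-of-ratios scaling, which brought the median of all genes to -0.01, gave 0.57, 0.29 and 0.23. Without IUHG library 3 they were 0.67, 0.22 and 0.15, with 0.02 over all genes.

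*Ccnb1* measured 315, 307 and 329 TPM in control and 594, 656 and 889.8 TPM in IUHG libraries (log2 fold change 1.15 ± 0.18, adjusted p = 0.015). The groups did not overlap, with all IUHG libraries the higher, and the IUHG levels lay between those of E13.5 control females and E12.5 controls. *Aurka* measured 137, 116 and 109 TPM in control and 218, 227 and 284 TPM in IUHG libraries (log2 fold change 1.00 ± 0.18, adjusted p = 0.023). *Aurkb* measured 42.5, 42.9 and 38.5 TPM in control and 74.1, 79.1 and 102 TPM in IUHG libraries (log2 fold change 1.01 ± 0.20, adjusted p = 0.031). Both Aurora kinases had no overlap between groups, and library 3 was the highest of the IUHG libraries in each. *Ccna2* measured 187, 172 and 202 TPM in control and 349.9, 295 and 413 TPM in IUHG libraries (log2 fold change 0.90 ± 0.18, adjusted p = 0.032), and *Cdc20* measured 368, 346 and 306 TPM in control and 531, 555 and 644 TPM in IUHG libraries (log2 fold change 0.76 ± 0.16, adjusted p = 0.04), again with no overlap.

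Among the other mitotic genes, *Plk1* (0.75), *Mki67* (1.35), *Ccnb2* (0.33) and *Cdk1* (0.53) had no overlap between groups but adjusted p-values of 0.05 or more. *Ccnb3*, the cyclin that female PGCs raised, measured 11.7, 6.54 and 12.2 TPM in control and 2.52, 2.53 and 4.12 TPM in IUHG libraries (log2 fold change -1.44 ± 0.34, adjusted p = 0.054), a lower level in every IUHG library that did not pass. *Bub1* and *Mad2l1* overlapped between groups. In replication, no gene had an adjusted p under 0.05, and *Mcm7* came nearest with 136, 126 and 141 TPM in control and 194, 211 and 260.0 TPM in IUHG libraries (log2 fold change 0.71 ± 0.18, adjusted p = 0.064). *Mcm4* shows the spread of the IUHG group, with 144, 114 and 146 TPM in control and 139.9, 179.7 and 352 TPM in IUHG libraries.

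Both lower G1/S genes had been higher in E13.5 females than at E12.5 among controls. *Ccne2* measured 128, 124 and 128 TPM in control and 29.2, 35.1 and 59.1 TPM in IUHG libraries (log2 fold change -1.67 ± 0.26, adjusted p = 0.013). IUHG libraries were near the E12.5 control level of 31.0 to 33.4 TPM, with library 3 above it. *Cdkn2d* measured 265, 282 and 293 TPM in control and 131, 136 and 86.8 TPM in IUHG libraries (log2 fold change -1.27 ± 0.20, adjusted p = 0.015), and here library 3 was the lowest. *Ccnd1* measured 60.9, 70.5 and 71.0 TPM in control and 35.6, 36.6 and 46.5 TPM in IUHG libraries (log2 fold change -0.76 ± 0.20, adjusted p = 0.073), and *Cdk4*, which female controls had lowered, measured 127, 125 and 125 TPM in control and 231, 196 and 187 TPM in IUHG libraries (log2 fold change 0.69 ± 0.17, adjusted p = 0.057); neither passed, and neither had overlap. *E2f7* (1.17) and *E2f8* (1.38) were higher in every IUHG library, while *E2f1* (0.22), *E2f4* (-0.35) and *E2f5* (-0.05) overlapped. The IUHG comparison and the stage comparison share their E13.5 control libraries, so the 2 sets of values are set side by side and not tested against each other.

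Library 3 of the IUHG group set much of the error. Without it, 18 of the 49 genes had an adjusted p under 0.05 (14 higher and 4 lower), with all 7 above among them, and 3 were called, all lower. Over all genes, 430 were then called (96 of them higher), against 85 (13 higher) with it. Leaving out any 1 control library left 0 members at an adjusted p under 0.05, and leaving out IUHG library 1 left 4. Without the filter on low values there were also 0, with the replicate number as a block 11, and with all PGC groups in 1 fit 29. The replicate block called 3 members and 217 of all genes, and the joint fit 9 members and 1358 of all genes. Shares of all genes at an adjusted p under 0.05 are not given for these runs. Whether the counts of 18, 11 and 29 exceed a shift of all genes was not tested. Over the genes without overlap, 21 members were higher and 5 lower, where 19.8% and 13.2% of all genes were. Markers moved with the group too: of 5 meiotic genes, 4 were lower at an adjusted p under 0.05, with sums of 3597 to 3901 TPM in control and 969 to 1065 TPM in IUHG libraries and none at 0, and germ cell markers summed to 4502 to 4792 and 5345 to 6328 TPM. Endothelial markers summed to 50.8 to 69.5 and 89.2 to 209 TPM, again through *Pecam1*, and interstitial markers to 8.69 to 13.6 and 4.65 to 6.76 TPM. The part of these shifts in the cell cycle differences was not tested.

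**Figure D3:**
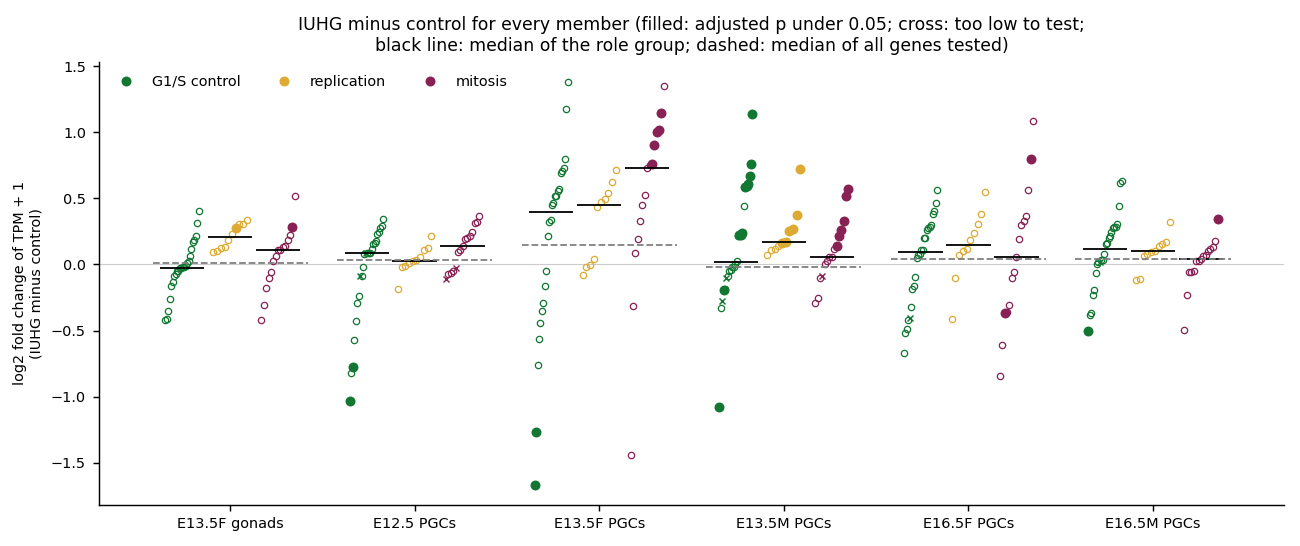
IUHG minus control for every gene in the gonads and the 5 PGC comparisons (y axis, log2 fold change of TPM + 1; green, G1/S control; yellow, replication; purple, mitosis; filled, adjusted p under 0.05; cross, too low to test; black line, median of the role; dashed line, median of all genes tested). In E13.5 female PGCs the 5 filled mitotic genes lie between 0.76 and 1.15 and the 2 filled G1/S genes at -1.67 and -1.27.

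In E13.5 male IUHG PGCs, cyclin E1 was raised and *Cdk6* lowered. *Ccne1* was called higher and *Cdk6* lower, 2 of 46 genes tested against 3.93% of all genes (2.03% up and 1.9% down). At an adjusted p under 0.05, 21 genes were higher and 2 lower, where 33.3% of all genes were, 15.3% higher and 18.1% lower. With all PGC groups in 1 fit, 7 members passed that threshold, and calls over all genes went from 568 to 392. Role medians were 0.02 for G1/S, 0.17 for replication and 0.06 for mitosis, beside -0.02 for all genes, and leaving out control library 2 gave 0.07, 0.21 and 0.10. *Ccne1* measured 35.4, 35.3 and 37.0 TPM in control and 75.0, 81.4 and 83.9 TPM in IUHG libraries (log2 fold change 1.13 ± 0.06, adjusted p = 2.2e-06). All IUHG libraries were more than 70 TPM and all controls under 40, and the IUHG level lay between those of E13.5 and E12.5 control PGCs. *Cdk6* measured 9.23, 8.36 and 10.5 TPM in control and 3.24, 3.95 and 4.56 TPM in IUHG libraries (log2 fold change -1.08 ± 0.14, adjusted p = 0.00034), without overlap, though at these low levels its call rests on the fold threshold: it was -0.92 with FPKM and -0.98 without IUHG library 1.

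Other G1/S genes of males were higher at an adjusted p under 0.05 with smaller fold changes. *Ccne2* measured 8.84, 7.22 and 7.69 TPM in control and 13.6, 13.501 and 15.2 TPM in IUHG libraries (log2 fold change 0.76 ± 0.10, adjusted p = 0.00053), *Cdkn2d* measured 38.4, 40.6 and 39.1 TPM in control and 60.9, 61.8 and 67.3 TPM in IUHG libraries (log2 fold change 0.67 ± 0.06, adjusted p = 5.7e-05) and *Ccnd1* measured 7.72, 6.55 and 5.63 TPM in control and 11.1, 9.38 and 11.4 TPM in IUHG libraries (log2 fold change 0.61 ± 0.13, adjusted p = 0.0055). In these 3 genes the male IUHG libraries were all above their controls, the opposite side from females. *Ccnd3* measured 133, 148 and 151 TPM in control and 214, 206 and 230.3 TPM in IUHG libraries (log2 fold change 0.59 ± 0.06, adjusted p = 0.00013), and *Cdk4* was slightly lower at 353, 359 and 357 TPM in control and 310.5, 316 and 307 TPM in IUHG libraries (log2 fold change -0.20 ± 0.04, adjusted p = 0.0044). *E2f8* (0.59), *E2f4* (0.24), *E2f5* (0.22) and *Tfdp1* (0.23) also had adjusted p-values under 0.05.

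All 10 replication genes had a higher mean in male IUHG PGCs, 6 of them at an adjusted p under 0.05: *Cdc6*, *Mcm4*, *Mcm3*, *Mcm7*, *Pcna* and *Cdc45*. *Cdc6* measured 11.2, 9.42 and 9.71 TPM in control and 18.8, 15.6 and 17.5 TPM in IUHG libraries (log2 fold change 0.72 ± 0.10, adjusted p = 0.0007), and *Mcm4* measured 81.9, 88.2 and 83.9 TPM in control and 105, 110.1 and 114 TPM in IUHG libraries (log2 fold change 0.37 ± 0.06, adjusted p = 0.00089). The other 4 of these lay between 0.17 and 0.27. Of the mitotic genes, *Plk1* measured 143, 159 and 167 TPM in control and 214, 216 and 240.4 TPM in IUHG libraries (log2 fold change 0.51 ± 0.07, adjusted p = 0.00048), and *Mki67*, *Ccna2*, *Cdk1*, *Ccnb2* and *Cdc20* were higher by 0.57, 0.33, 0.26, 0.22 and 0.14. *Ccnb1* (0.12), *Aurka* (0.03) and *Aurkb* (0.06), which were higher in female IUHG PGCs, overlapped between groups in males. Over genes without overlap, 24 members were higher and 4 lower, against 21.8% and 25.4% of all genes.

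In the same male libraries, meiotic markers summed to 194 to 213 TPM in control and 316 to 358 TPM in IUHG PGCs (2 of 5 genes higher and 2 lower at an adjusted p under 0.05), and male germ cell markers to 30.9 to 34.9 and 3.48 to 6.44 TPM (2 of 3 lower). Germ cell markers summed to 8306 to 8895 and 7484 to 7772 TPM (2 of 6 genes higher and 2 lower at an adjusted p under 0.05). Endothelial markers summed to 46.7 to 52.3 and 73.2 to 83.5 TPM through *Pecam1*, which was higher at an adjusted p under 0.05, Sertoli markers to 10.8 to 11.7 and 7.68 to 9.86 TPM, pregranulosa markers to 2.62 to 3.28 and 3.51 to 4.88 TPM and interstitial markers to 4.93 to 6.81 and 2.14 to 3.32 TPM. The part of these in the cell cycle differences was not tested.

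The IUHG difference itself differed between the sexes at E13.5 for 8 of 49 genes, where 3.22% of all genes passed the interaction test (2% positive and 1.22% negative). As male minus female differences, *Cdkn2d* (1.94 ± 0.21, adjusted p = 0.00018), *Ccne2* (2.43 ± 0.29, adjusted p = 0.00034) and *Ccnd1* (1.37 ± 0.23, adjusted p = 0.0028) were positive, with a lower mean in female and a higher mean in male IUHG PGCs. *Cdk4* (-0.89 ± 0.14, adjusted p = 0.0022) and *Cdk6* (-1.65 ± 0.32, adjusted p = 0.0073) were negative, with a higher mean in female and a lower mean in male IUHG PGCs. *Ccnb1* (-1.03 ± 0.19, adjusted p = 0.0051), *Aurka* (-0.97 ± 0.18, adjusted p = 0.005) and *Aurkb* (-0.96 ± 0.18, adjusted p = 0.0071) were also negative, with male differences of 0.12, 0.03 and 0.06. At an adjusted p under 0.05 there were 10 (9.88% of all genes), with *Ccne1* (0.82) and *Cdc20* (-0.62) added and no replication gene. Under median-of-ratios scaling 4 genes were positive and 2 negative (over all genes 520 of 772 calls positive, against 348 of 559), and *Ccne2* and *Cdkn2d* kept their calls under all 18 alternatives. Without the E13.5 female IUHG library 3, 13 genes were called, and without male control library 2 or 3 or male IUHG library 1 or 3, 2 were.

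**Figure D4:**
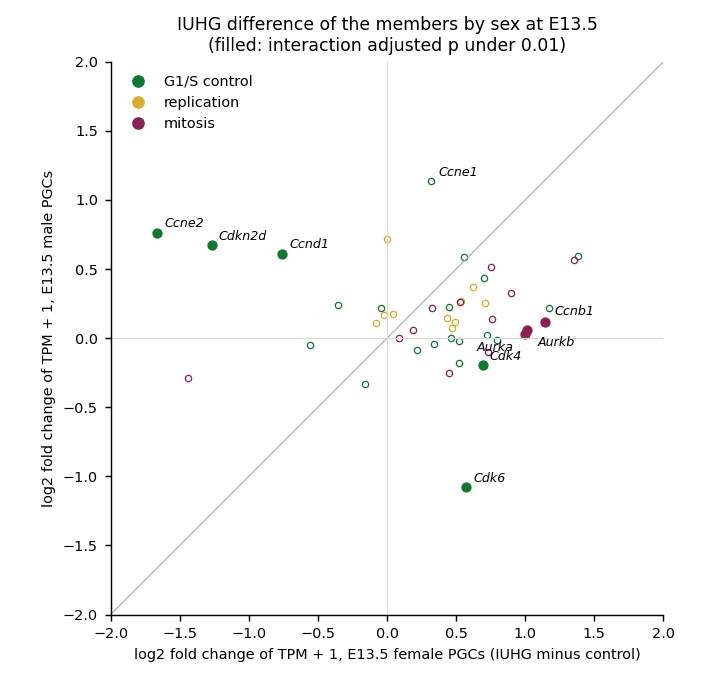
IUHG minus control log2 fold change of the 46 genes tested in both sexes, in E13.5 female PGCs (x axis) and male PGCs (y axis), by role in colour. The grey diagonal marks equal change and filled points are the 8 genes with an interaction adjusted p under 0.01. *Ccne2*, *Cdkn2d* and *Ccnd1* lie to the upper left, and *Ccnb1*, *Aurka* and *Aurkb* near 0 in males and at 1.00 to 1.15 in females.

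At E12.5, where the sexes were not separated, the G1/S genes *Cdk2* and *Ccnd2* were lower in IUHG PGCs. No member was called by limma among 45 tested (0.247% of all genes). An unadjusted p under 0.05 was found for 12 (15.7% of all genes) and an adjusted p under 0.05 for 2 (1.58% of all genes). *Cdk2* measured 127, 113 and 125 TPM in control and 77.1, 64.6 and 70.7 TPM in IUHG libraries (log2 fold change -0.78 ± 0.10, adjusted p = 0.0079), with every IUHG library below every control. *Ccnd2* measured 4.42, 3.87 and 3.21 TPM in control and 1.27, 1.28 and 1.48 TPM in IUHG libraries (log2 fold change -1.04 ± 0.20, adjusted p = 0.037), at levels where 1 TPM is a large share. Without overlap, 14 members were higher and 7 lower, against 13.3% and 9.13% of all genes; 9 of the 14 were mitotic, such as *Ccnb1* at 937, 941 and 937 TPM in control and 1166, 986 and 1129.7 TPM in IUHG libraries, and all 7 were of G1/S control. Role medians were 0.09 for G1/S, 0.03 for replication and 0.14 for mitosis beside 0.04 for all genes, and that of replication was -0.01 under median-of-ratios scaling and -0.02 with FPKM. Without 1 library the G1/S median ran from 0.00 (IUHG library 3) to 0.14 (IUHG library 2) and the replication median from 0.01 (IUHG library 1) to 0.07 (IUHG library 2). Of the 2 genes at an adjusted p under 0.05, none passed without the filter on low values or without control library 1 or 3, and 1 passed with the replicate block or without control library 2 or IUHG library 1 or 2. The lower Y-linked sum of the IUHG libraries moved with these differences. So did the sum of germ cell markers (7266 to 7927 TPM in control and 6372 to 7107 TPM in IUHG libraries), although 1 of 6 genes was higher and 1 lower at an adjusted p under 0.05. Meiotic markers (174 to 190 and 153 to 165 TPM), *Pecam1* (122 to 132 and 146 to 164 TPM) and interstitial markers (4.27 to 6.42 and 0.233 to 1.14 TPM) moved too. The part of all these was not tested.

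At E16.5, 1 member was higher and 1 lower in the IUHG PGCs of each sex at an adjusted p under 0.05. This was no larger a share than that of all genes, 5.67% in females and 5.94% in males. In females, none of 48 was called by limma (0.742% of all genes), with 14 at an unadjusted p under 0.05 (22.8% of all genes). In males, none of 48 was called by limma (0.201% of all genes), with 9 at an unadjusted p under 0.05 (23.9% of all genes). *Bub1*, the checkpoint kinase, measured 102, 108 and 119 TPM in control and 222, 156 and 201 TPM in IUHG libraries in females (log2 fold change 0.80 ± 0.14, adjusted p = 0.016). *Ccnb3*, the cyclin of female meiosis, measured 216, 223 and 232 TPM in control and 178, 172 and 170.4 TPM in IUHG libraries (log2 fold change -0.36 ± 0.09, adjusted p = 0.043), so that the groups did not overlap although the difference was under 1.5-fold. In males, *Cdc20* measured 308, 295 and 304 TPM in control and 366, 392 and 396 TPM in IUHG libraries (log2 fold change 0.34 ± 0.05, adjusted p = 0.013), and *Ccnd3* measured 116, 119 and 113 TPM in control and 90.5, 82.2 and 73.6 TPM in IUHG libraries (log2 fold change -0.50 ± 0.08, adjusted p = 0.015). These were the 4 members with an adjusted p under 0.05, 2 in each sex. In both sexes 0 passed without the filter on low values. In females 0 also passed without any 1 control library or IUHG library 3, and 1 passed with the replicate block. With all PGC groups in 1 fit 9 passed in females, where calls over all genes went from 139 to 1659. In males 0 passed without control library 2 or 3 or IUHG library 2.

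Of the 7 genes with an adjusted p under 0.05 in E13.5 female IUHG PGCs, none had one in females at E16.5. *Ccnb1* was at 21.6, 18.4 and 24.3 TPM in control and 28.7, 18.7 and 20.4 TPM in IUHG libraries (log2 fold change 0.06 ± 0.22, adjusted p = 0.89). *Cdkn2d* was at 101, 89.5 and 103 TPM in control and 82.2, 92.5 and 82.2 TPM in IUHG libraries (log2 fold change -0.19 ± 0.12, adjusted p = 0.36). *Ccne2*, lower at E13.5, was at 165, 175 and 189.8 TPM in control and 281, 186 and 277 TPM in IUHG libraries (log2 fold change 0.46 ± 0.16, adjusted p = 0.12), where every IUHG library but library 2 lay well above the controls. *Aurkb* was at 5.27, 2.75 and 1.34 TPM in control and 7.23, 6.27 and 7.70 TPM in IUHG libraries in females (log2 fold change 1.08 ± 0.39, adjusted p = 0.14) and at 11.7, 10.8 and 10.7 TPM in control and 7.29, 6.54 and 9.01 TPM in IUHG libraries in males (log2 fold change -0.49 ± 0.14, adjusted p = 0.072), and its interaction with sex was the only one of 49 at an adjusted p under 0.05 (-1.58 ± 0.41, adjusted p = 0.049; 4.46% of all genes). This interaction was lost without the filter on low values, with a pseudocount of 0.1, with the replicate block, and without female control library 2, female IUHG library 3 or any 1 male library, each leaving 0, while 4 members passed without female IUHG library 2. No interaction of a member was called by limma at E16.5 (1.18% of all genes), with 10 at an unadjusted p under 0.05 (19.5% of all genes).

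Role medians at E16.5 were 0.10, 0.15 and 0.06 in females and 0.12, 0.10 and 0.04 in males for G1/S, replication and mitosis, with 0.04 over all genes in both sexes. Single libraries moved them: in females G1/S ran from 0.02 (without control library 1) to 0.14 (without control library 2) and mitosis from -0.09 (without IUHG library 1) to 0.15 (without control library 3), and in males G1/S ran from 0.03 (without control library 3) to 0.19 (without control library 1). FPKM and median-of-ratios scaling took male mitosis to -0.01 and 0.00. Without overlap, 12 members were higher and 5 lower in females (14.9% and 14.1% of all genes) and 8 higher and 4 lower in males (17.8% and 12% of all genes). Blood markers reached 238 TPM in female IUHG library 3, and in males they summed to 198 to 461 TPM in control and 42.4 to 230 TPM in IUHG libraries; interstitial markers in females summed to 17.8 to 58.9 and 71.7 to 103 TPM. In females meiotic markers summed to 6678 to 7157 and 7480 to 9246 TPM (2 of 5 higher at an adjusted p under 0.05), male germ cell markers to 73.4 to 101 and 31.7 to 39.6 TPM (1 of 3 lower) and Sertoli markers to 2.67 to 4.63 and 1.46 to 2.16 TPM. In males meiotic markers summed to 335 to 348 and 371 to 398 TPM, germ cell markers to 1274 to 1473 and 1497 to 1539 TPM and interstitial markers to 16.2 to 31.1 and 34.4 to 36.8 TPM, while Sertoli markers summed to 10.8 to 11.9 and 8.67 to 10.3 TPM and endothelial markers to 20.7 to 22.8 and 16.1 to 18.8 TPM. Their part was not tested.

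In E13.5 female gonads, which hold somatic cells as well as germ cells, all 10 replication genes had higher means under IUHG. None of the 49 genes was called by limma (0.622% of all genes). An unadjusted p under 0.05 was found for 20 members (19.9% of all genes) and an adjusted p under 0.05 for 2 (2.5% of all genes). *Ccnb2* measured 115, 118 and 119 TPM in control and 148, 142 and 139.5 TPM in IUHG libraries (log2 fold change 0.28 ± 0.05, adjusted p = 0.024). *Mcm2* measured 131, 136 and 135 TPM in control and 167, 162 and 157 TPM in IUHG libraries (log2 fold change 0.27 ± 0.05, adjusted p = 0.028). Both had no overlap and a difference of under 1.25-fold, and without control library 1, which held Y-linked reads, *Ccnb2* alone passed. Without any 1 of the other 5 libraries, without the filter on low values or with the replicate block, 0 passed. Of the replication genes, 7 had no overlap, with a median of 0.21, against 0.11 for mitotic, -0.02 for G1/S and 0.01 for all genes.

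The levels of 4 G1 genes in control gonads stand here beside their highest level in control PGCs. *Ccnd2* was at 134, 152 and 137 TPM, *Cdk4* at 549, 520.3 and 516 TPM, *Cdkn1b* at 38.8, 50.0 and 46.6 TPM and *Rbl2* at 18.7, 19.3 and 17.2 TPM in control gonads, and these genes were at most 17.6, 401, 4.18 and 2.58 TPM in control PGCs. *Rbl2*, the pocket protein p130 of resting cells, was at 14.1, 14.6 and 14.0 TPM in IUHG gonads (log2 fold change -0.35 ± 0.08, adjusted p = 0.064), below every control without passing. PGC libraries were made by Smart-seq2, with amplification of full-length cDNA, and gonad libraries with a standard RNA-seq kit. The reads were also aligned with different aligners, so levels were not tested across gonads and PGCs. Over members without overlap, 19 were higher and 4 lower, against 14.5% and 11.3% of all genes. Blood markers summed to 7789 to 9622 TPM in control and 4943 to 5889 TPM in IUHG gonads (3 of 4 lower at an adjusted p under 0.05), interstitial markers to 1257 to 1346 and 869 to 972 TPM (2 of 4 lower), and germ cell markers to 447 to 524 and 636 to 745 TPM (2 of 6 higher). The part of this shift in cell makeup was not tested.

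**Figure D5:**
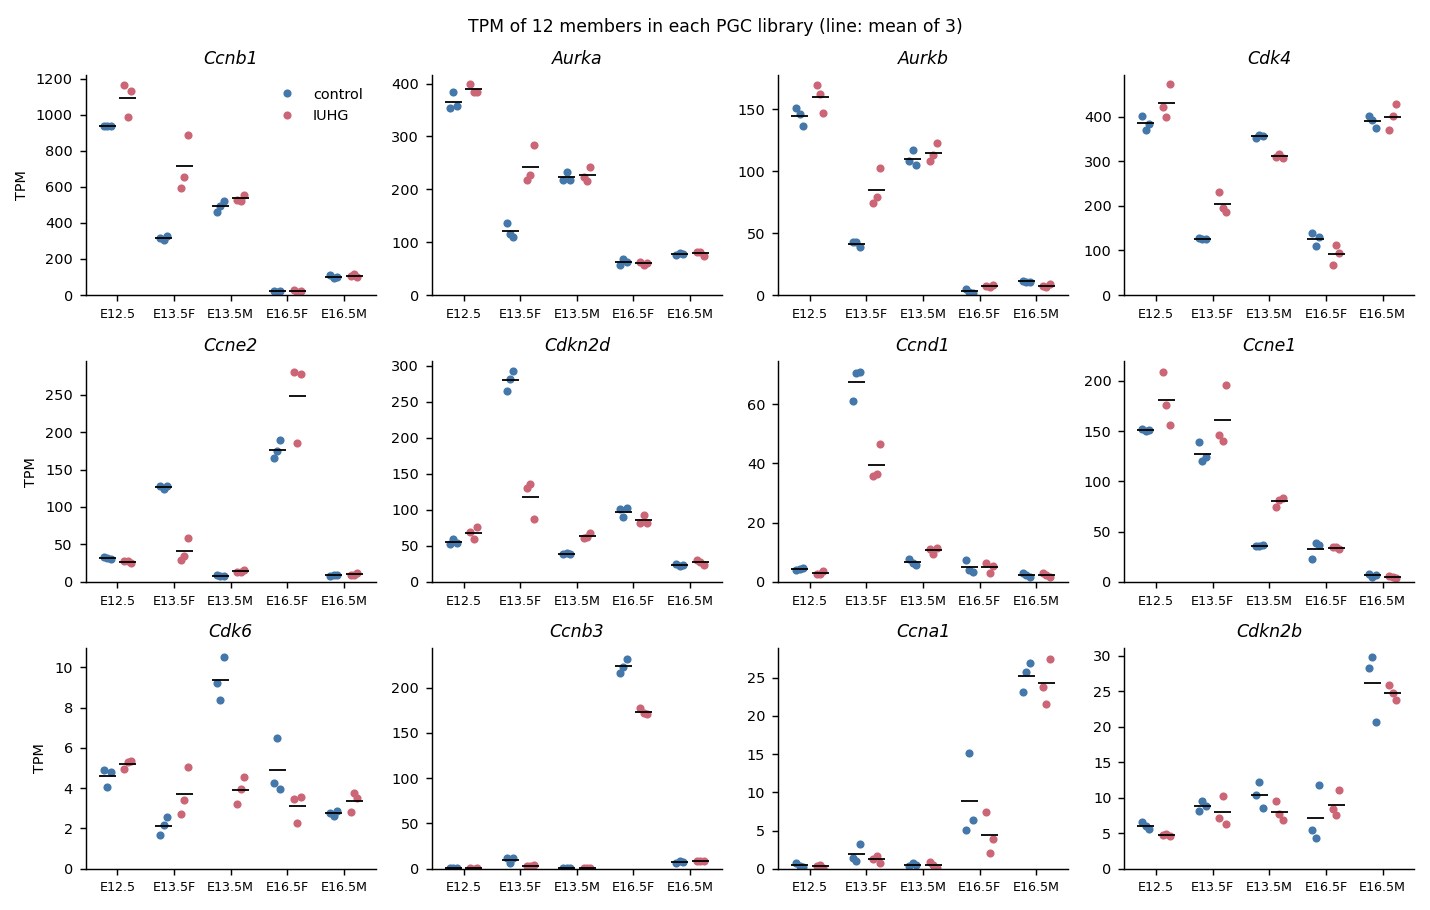
TPM of 12 of the genes in each PGC library (x axis, stage and sex; y axis, TPM; blue, control; red, IUHG; line, mean of 3). *Ccnb1*, *Aurka*, *Aurkb* and *Cdk4* lie higher and *Ccne2*, *Cdkn2d* and *Ccnd1* lower in E13.5 female IUHG libraries, *Ccne1* lies higher and *Cdk6* lower in E13.5 male IUHG libraries, and *Ccnb3* is high in E16.5 females and *Ccna1* and *Cdkn2b* in E16.5 males.

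A wider list of 84 other cell cycle and replication genes, all found in both tables, was tested in the same fits. Under IUHG it held 1 call, *Tk1*, the thymidine kinase of the salvage pathway, higher in E13.5 male PGCs (log2 fold change 1.09 ± 0.06, adjusted p = 1.4e-06). At an adjusted p under 0.05, the list had 31 genes higher and 10 lower in E13.5 males (15.3% and 18.1% of all genes), 6 and 0 in gonads (1.45% and 1.06%), 4 and 4 in E16.5 females (2.57% and 3.1%), 4 and 2 in E16.5 males (3.38% and 2.55%), 1 and 1 at E12.5 (0.88% and 0.698%) and 1 and 1 in E13.5 females (1.07% and 2% of all genes). Of the interaction at E13.5, *Tk1* was positive (1.55) and *E2f6*, a repressive E2F, and *Fzr1*, the CDH1 activator of the anaphase promoting complex, negative (-1.71 and -0.76).

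In control PGCs, the wider list of 84 had 6 up and 7 down from E12.5 to E13.5 in females (18.6% and 6.9% of all genes) and 2 and 10 in males (8.97% and 7.27%). From E13.5 to E16.5 it had 2 and 26 in females (18.4% and 9.79%) and 3 and 45 in males (38.3% and 12.7%). In females, *Uhrf1*, which guides DNA methylation to replicated DNA, rose by 1.60 and *Cdkn1c*, the inhibitor p57, by 1.03 at the first step, while *Bub3*, a checkpoint protein, and *Tyms*, the thymidylate synthase, were at -1.50 and -1.18. At the second, *Cdkn1c* (1.50) and *Gins2*, a helicase subunit (1.25), rose, and *Cenpa*, the centromeric histone (-3.83), and *Rpa2*, which coats single-stranded DNA (-1.65), fell. In males, *Uhrf1* (1.28) and *Espl1*, the separase (1.15), rose at the first step while *Rrm2*, a subunit of ribonucleotide reductase (-2.16), and *Fen1*, the flap endonuclease (-1.01), fell; at the second, *Cdc25b*, a CDK phosphatase (2.97), and *Cdkn1c* (1.17) rose while *Ube2c*, a ubiquitin enzyme of mitosis (-3.08), and *Spc24*, of the kinetochore (-4.12), fell. Between the sexes, 6 were higher and 12 lower in males at E13.5 (9.35% and 20.4% of all genes), among them *Fzr1* (1.09), *Lin37* of the DREAM complex (1.15), *Rrm2* (-1.57) and *Gins3*, a helicase subunit (-2.01). At E16.5, 9 were higher and 34 lower (28% and 22.9% of all genes), among them *E2f6* (2.46), *Pttg1*, the securin (1.46), *Birc5*, the survivin of the passenger complex (-3.81), and *Spc24* (-3.69).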

How the data were processed

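The authors trimmed the reads and aligned them with HISAT2 (gonads; StringTie v2.1.7) or STAR (PGCs, Mm39, unique reads). StringTie, as run by the authors, scaled the deposited TPM values for transcript length and to a fixed total per library. The deposited FPKM values, scaled for length and aligned fragments, served as an alternative. The deposited coverage signal (unscaled depth over transcripts) divided by FPKM gave aligned bases. The submitters' processing notes also name featureCounts and DESeq2; read counts were not used here.

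Values were summed per gene ID, taken as log2(TPM + 1) and, where a compared group had a mean TPM of 1 or more, tested two-sided with limma 3.58.1 (R 4.3.3; lmFit, eBayes with a trend, Benjamini-Hochberg over all genes tested), each comparison on its own groups. Interactions needed only an adjusted p under 0.01. Median-of-ratios scaling, a pseudocount of 0.1, no filter, all PGC groups in 1 fit, a replicate block and leaving out each library were alternatives. Where labels do not say that pools came from separate litters, p-values measure only the spread between these libraries. Values in every library are given for called genes, up to the 10 of lowest p per direction, and from the wider list the 2 called up and the 2 called down of lowest p are named. Members, lists and tests were chosen with earlier results of these data known. The test was checked on simulated data. Role medians cover all members of a role, tested or not. Python 3.11.15, pandas 2.3.3, numpy 2.4.6 and matplotlib 3.10.9 were used. Methylation and chromatin data were not analysed here.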

Additional observations from a re-analysis of the deposited data

Results flagged for a closer look

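The IUHG difference differed between the sexes at E13.5 for 8 of the 49 genes, by the limma test of the difference itself (male minus female, on the log2 scale). Over all genes, 3.22% passed this test, and 6 of the 8 calls failed under at least 1 alternative. The values were 1.94 for *Cdkn2d*, 2.43 for *Ccne2*, 1.37 for *Ccnd1*, -0.89 for *Cdk4*, -1.03 for *Ccnb1*, -0.97 for *Aurka*, -0.96 for *Aurkb* and -1.65 for *Cdk6*. In female PGCs *Cdkn2d*, *Ccne2* and *Ccnd1* had lower and the other 5 higher means under IUHG. In male PGCs the first 3 had higher means, *Cdk4* and *Cdk6* lower means, and *Ccnb1*, *Aurka* and *Aurkb* differences of 0.12, 0.03 and 0.06. With 3 libraries a group, a single library that lies apart was not searched for by a rule, and IUHG library 3 of E13.5 females is described with the results it touches.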

How the results depend on the processing

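No called gene changed sign under any alternative run, and 36 of the 127 calls of members in all comparisons failed under at least 1. Role medians near 0 did change sign: under median-of-ratios scaling those of replication between the sexes at E16.5 (0.20, and 0.09 with FPKM), of G1/S at the first female step (-0.16), of replication at E12.5 (-0.01, and -0.02 with FPKM) and of mitosis in E16.5 males (just below 0, and -0.01 with FPKM), and on leaving out 1 library that of mitosis in E16.5 females (-0.09) and, by less than 0.01, those of G1/S at E12.5 and at the first female step. Interaction medians also changed sign on leaving out 1 library. That of replication at E13.5 went from -0.26 to 0.01 without female IUHG library 3. At E16.5 those of every role did, with G1/S going from -0.03 to 0.11 without male control library 1. The cause was not tested. Counts of members called in the stage and sex comparisons of controls stayed within 1.5 times under every alternative run. Under IUHG, fitting all PGC groups together, which shares 1 estimate of the spread, gave 1 call at E12.5, 9 in E13.5 females (6 higher and 3 lower), 1 in E16.5 females and 1 for the interaction at E16.5, each against 0 in the separate fits, and in E13.5 males it lowered the members at an adjusted p under 0.05 from 23 to 7. Over all genes, the joint fit gave 64, 1358, 1659 and 962 calls in these comparisons, against 34, 85, 139 and 284 in the separate fits. In E13.5 females, FPKM gave 1 call and median-of-ratios scaling 1, both lower. In E13.5 males, FPKM gave 1 in place of 2. Without the filter on low values the interaction at E13.5 had 4 calls in place of 8. Leaving out each library gave 0 to 3 calls in E13.5 females, 1 to 2 in E13.5 males, 2 to 13 for the interaction at E13.5 and 0 to 1 for that at E16.5 (1 without E16.5 female control library 1). The deviations of libraries that share a number correlated at 0.124 or less in every pair, and whether the numbers pair them was not settled. With the replicate block, 3 members were called in E13.5 females (1 higher and 2 lower) and 6 for the interaction at E13.5. In gonads the 2 members at an adjusted p under 0.05 became 4 with FPKM and 0 with the replicate block or without the filter. Depth per gene is unknown, which limits low genes such as *Rbl2*, *Cdkn1b* and *Ccna1* most.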
